A study of Mus musculus with 17 samples.

Results

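Imprinted genes are genes of which cells read mainly 1 parental copy. The 32 genes described here were taken by symbol from a list of known mouse imprinted genes, with no threshold on their values here although earlier results of these data were known, out of 55450 genes in the bulk RNA-seq table and 35849 in the single-cell tables. Of the 32, 22 are best known as paternally expressed and 8 as maternally expressed (*H19*, *Igf2r*, *Zim1*, *Meg3*, *Rian*, *Mirg*, *Cdkn1c* and *Phlda2*), and for *Grb10* and *Gnas* the expressed copy depends on the promoter or tissue. The study cultured cells from female FVB/NJ mice carrying the MMTV-PyMT transgene, in which the mammary tumor virus promoter drives the polyoma middle T oncogene in mammary epithelium, at 10 to 12 weeks of age. Cells from the primary tumor of the mammary fat pad (MFP), from lymph node (LN), from bone marrow (BM) and from lung were enriched for cancer cells for about a month in vitro, and the metastatic cells were sorted as EpCAM high with a low or a high CD44 signature. All groups carried the transgene and none was treated. Bulk RNA-seq covered 14 libraries, 2 each of MFP, LN CD44low, LN CD44high, BM CD44low, BM CD44high, lung CD44low and lung CD44high, and the 2 libraries of a group were distinct clonal isolates from different mice. MFP carries no CD44 label. Single-cell RNA-seq covered 1 library each of lung CD44low (lungL), lung CD44high (lungH) and LN CD44high (lymphH) cells in the files used here. The study's methods describe 2 replicates of each, and whether a file joins them is not stated.

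The lung libraries went against the epithelial label, and every result on lung below carries this. *Epcam*, the surface protein of the sort, was at 0 and 0 TPM (a length-normalized share of a library's transcripts) in lung CD44low and at 0.23 and 0.86 TPM in lung CD44high, against 315.09 to 941.14 TPM in the 10 other libraries. The 7 epithelial markers summed to 1.74 and 2.36 TPM in lung CD44low, 15.7 and 87.53 TPM in lung CD44high, 2091.26 to 4400.79 TPM in LN and BM, and 7707.65 and 6863.76 TPM in MFP. The 8 fibroblast markers, led by *Dcn*, summed to 4708.03 and 5116.83 TPM in lung CD44low with all 8 at or above 1 TPM, to 194.83 and 85.74 TPM in lung CD44high with 4 and 3 of 8, and to 19.9 TPM or less in each library of the other groups. In lung CD44high, *Dcn* was at 166.3 and 78.87 TPM, while *Lum* (0 and 0.05 TPM), *Col1a1* (0.08 and 0.02 TPM) and *Col1a2* (0 and 0 TPM) were at or near 0. The 5 cycling markers summed to 3.35 to 51.72 TPM in the lung libraries and to 463.72 TPM or more elsewhere, with LN CD44low replicate 2 the lowest of the latter. BM CD44low replicate 2 had the most genes at or above 1 TPM, 13052 against 11508 to 12351 in the others. The part of any of these in the values of the imprinted genes was not tested.

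Imprinted genes sit mostly in clusters, each governed by a control region whose DNA is methylated on the copy from 1 parent, and often by a long noncoding RNA read from the other copy. Many act on fetal and placental growth, with paternally expressed members such as *Igf2* and *Mest* mostly promoting growth and maternally expressed members such as *Igf2r*, *Cdkn1c* and *Phlda2* mostly restraining it, and many are silenced in most adult tissues. Loss or gain of imprinted expression is well known in tumors and in cultured cells. The values here are total RNA per gene and do not tell the parental copies apart, and in bulk RNA fewer expressing cells cannot be told from less RNA per cell.

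Most members were low or silent in every library, and more of them reached 1 TPM in lung CD44low than in any other group. Between 7 and 12 of the 32 members reached 1 TPM in each MFP, LN and BM library, against 14 and 15 in lung CD44low and 11 and 10 in lung CD44high. The members summed to 131.92 to 280.73 TPM in MFP, LN and BM, apart from BM CD44low replicate 2 at 689.17 TPM, of which *Gnas* made 613.45 TPM. They summed to 1405.36 and 1736.42 TPM in lung CD44low and to 482.88 and 337.93 TPM in lung CD44high. Both lung CD44low libraries stood above all others in this sum.

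**Figure D1:**
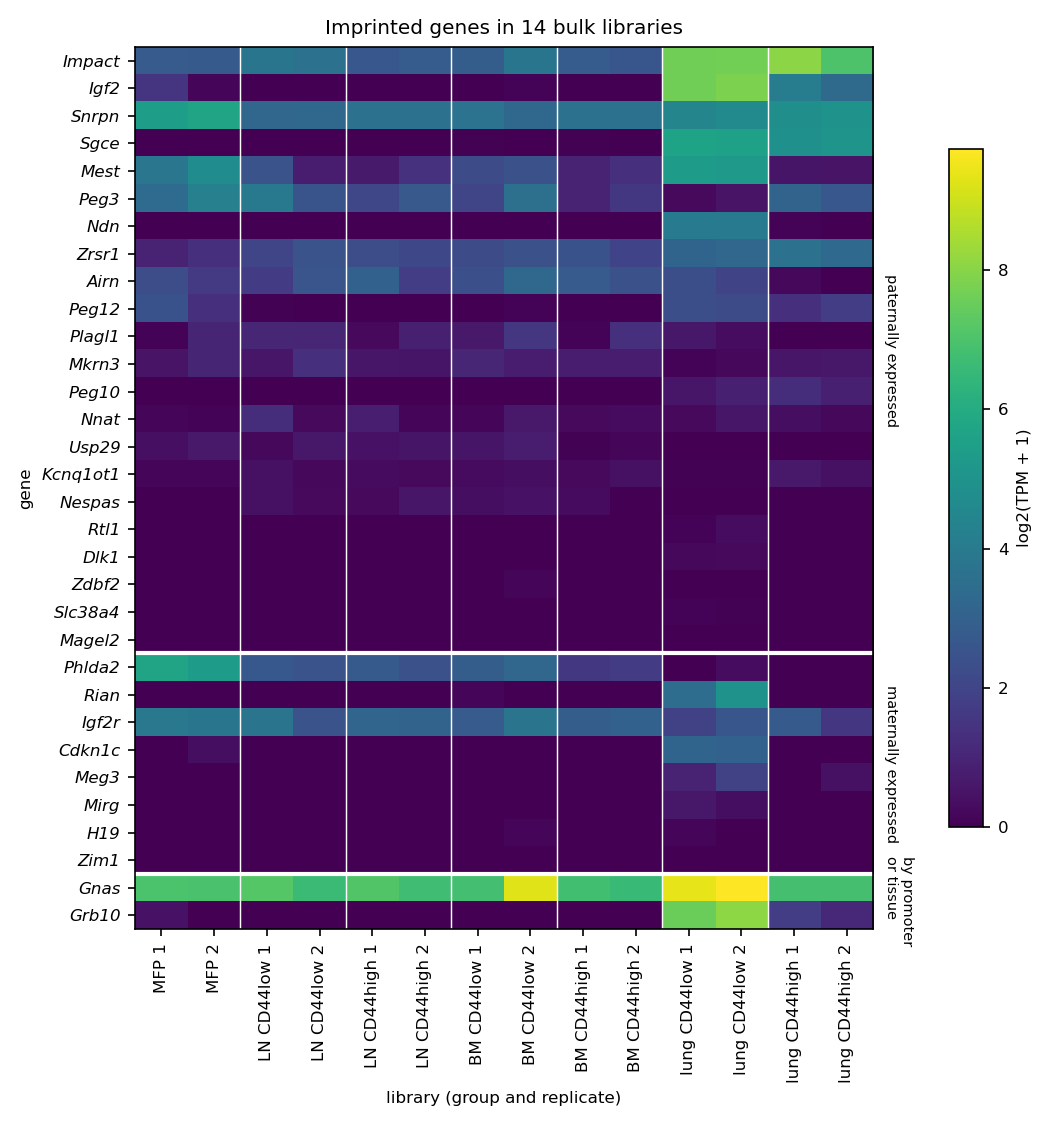
Levels of the 32 imprinted genes (rows, grouped by expressed copy) in the 14 bulk libraries (columns), colored by log2(TPM + 1). The lung columns hold most of the bright cells, with *Gnas* bright in every library and *Phlda2* and *Snrpn* brightest in MFP.

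A gene was tested where it reached 1 TPM in at least 2 libraries, which 18 of the 32 members did. Of these 18, *Igf2*, *Ndn*, *Sgce*, *Rian*, *Cdkn1c* and *Grb10* passed only through lung libraries and so had to differ there, *Ndn*, *Rian* and *Cdkn1c* through lung CD44low alone, so their differences between lung and other groups are given with no p, for these last 3 between the lung groups too, and every count over the tested members below is a description. A gene was called higher or lower where its group means differed by over 2 on the log2(TPM + 1) scale with an adjusted p under 0.05. The 14 untested members stayed at or below 2.71 TPM in every library, and *Magel2* and *Zim1* were listed at 0 in all 14. Differences below are on the log2(TPM + 1) scale with their standard error (SE), which understates the change of low genes, and adjusted p-values are from limma over all 15348 genes tested.

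*Igf2*, a fetal growth factor, and *H19*, a noncoding RNA that shares its enhancers and is read from the opposite parental copy, lie 72.6 kb apart on chromosome 7 (mm10), and only *Igf2* was detected at any height. *Igf2* was at 195.92 and 224.29 TPM in lung CD44low, 16.51 and 9.42 TPM in lung CD44high, 1.76 and 0.13 TPM in MFP, and at 0 in all LN and BM libraries but BM CD44low replicate 2, with 0.08 TPM. The groups did not overlap between lung and the rest. *Igf2* rose in lung CD44low against MFP by 6.90 (SE 0.40) and fell by 3.96 (SE 0.40, adjusted p = 4.457e-05) from lung CD44low to lung CD44high. It also rose by 2.94 (SE 0.40) in lung CD44high against MFP, a call that was lost when only these 4 libraries were fitted. *H19* was detected in BM CD44low replicate 2 at 0.11 TPM and in lung CD44low replicate 1 at 0.09 TPM, and in no other library, so it stayed near 0 where *Igf2* was high. *Igf2* shares 62.8% of its exonic bases with a read-through gene on the same strand, *Gm49394*, which the files list at no more than 0.33 TPM, so reads may have been split between them.

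*Igf2r*, the maternally expressed receptor that takes up and degrades IGF2, and *Airn*, the antisense RNA read from the paternal copy that silences it, overlap on chromosome 17. *Igf2r* was at 13.99 and 12.86 TPM in MFP, 4.59 to 12.59 TPM in LN and BM, 2.81 and 5.14 TPM in lung CD44low and 5.85 and 1.88 TPM in lung CD44high. It was called in none of the 10 comparisons, although both lung groups lay below both MFP libraries (-1.58 and -1.70, SE 0.53, adjusted p = 0.03444 and 0.03047). *Airn* was at 4.04 and 3.04 TPM in lung CD44low, 0.17 and 0 TPM in lung CD44high and 2.14 to 8.49 TPM elsewhere. It fell by 2.06 (SE 0.49, adjusted p = 0.01104) from lung CD44low to lung CD44high. This call of *Airn* was lost without lung CD44low replicate 1 (-1.90, adjusted p = 0.08081), without lung CD44high replicate 2 (-1.95, adjusted p = 0.05942) and with a median-ratio scaling (-1.96). No exonic base is shared by the pair.

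*Grb10*, an adaptor protein that restrains insulin and IGF signalling, had the widest range of the members on the log2(TPM + 1) scale. It was at 186.54 and 269.2 TPM in lung CD44low, 2.38 and 1.18 TPM in lung CD44high, 0.4 and 0 TPM in MFP, and was listed at 0 in all 8 LN and BM libraries. Both lung CD44low libraries stood far above the rest, and both lung CD44high libraries lay above all of MFP, LN and BM. *Grb10* rose by 7.57 (SE 0.28) in lung CD44low against MFP and fell by 6.37 (SE 0.28, adjusted p = 1.163e-07) from lung CD44low to lung CD44high. Its difference between lung CD44high and MFP was 1.198 (SE 0.28), under the fold needed for a call. The gene has several start sites, and the 250 bases before a pair of them, from RefSeq on GRCm38.p6, are shown because the parental copy in use depends on the promoter, with CG dinucleotides, where methylation falls, in capitals. The gene-level TPM does not tell which start was used.
*Grb10* upstream start, chr11:12037421-12037670, minus strand: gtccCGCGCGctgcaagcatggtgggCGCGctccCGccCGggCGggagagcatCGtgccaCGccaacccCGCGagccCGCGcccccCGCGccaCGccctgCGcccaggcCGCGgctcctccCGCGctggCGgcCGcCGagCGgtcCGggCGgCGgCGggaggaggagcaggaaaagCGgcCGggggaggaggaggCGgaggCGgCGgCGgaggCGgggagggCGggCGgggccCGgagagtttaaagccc
*Grb10* downstream start, chr11:12027972-12028221, minus strand: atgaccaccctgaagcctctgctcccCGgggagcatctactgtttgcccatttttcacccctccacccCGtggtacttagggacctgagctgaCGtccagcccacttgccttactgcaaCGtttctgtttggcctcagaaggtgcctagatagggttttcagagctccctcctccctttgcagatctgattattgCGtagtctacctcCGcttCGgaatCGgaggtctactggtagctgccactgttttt
The first holds 40 CG, a number that 1.3% of windows reach, and the second 8, where the median over 32851 mouse promoter windows of this length is 6 (quartiles 2 and 16).

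*Mest*, a paternally expressed enzyme of mesoderm and fetal growth, was at 39.5 and 36.88 TPM in lung CD44low and at 0.47 and 0.44 TPM in lung CD44high. It was at 13 and 25.47 TPM in MFP and at 0.63 to 4.55 TPM in LN and BM, so MFP lay between the 2 lung groups and lung CD44high lay below every other library. *Mest* fell by 4.75 (SE 0.52, adjusted p = 8.487e-05) from lung CD44low to lung CD44high. Against MFP it fell by 3.73 in lung CD44high (adjusted p = 0.0004116), by 3.21 in LN CD44high (adjusted p = 0.001905), by 3.11 in BM CD44high (adjusted p = 0.001994) and by 2.64 in LN CD44low (adjusted p = 0.007762), each with an SE of 0.52. The *Mest* call in LN CD44low was lost without MFP replicate 2 (-2.18, adjusted p = 0.07619), without LN CD44low replicate 2 (-1.79, adjusted p = 0.03412) and in a fit of only the groups compared (adjusted p = 0.2031). In lung CD44low both libraries lay above both of MFP, by 1.03 (SE 0.52, adjusted p = 0.1385), which passed neither threshold. *Mest* shares 23.1% of its exonic bases with *Copg2* on the other strand, and the strand setting of the library is not stated. *Copg2*, named for this overlap and not by a rule, was at 26.9 and 37.18 TPM in lung CD44low, 49.13 and 34.2 TPM in lung CD44high and 15.48 and 16.07 TPM in MFP, and its part in the *Mest* values was not tested.

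The *Mest* start site is shown because it holds the letters TGCCGC, searched on both strands, the motif bound in its methylated form by ZFP57, a guard of imprints. The letters were in 6 of 41 windows found for 25 of the 32 members, among them overlapping *Mest* windows that start at 30737800 and 30737803. They were in 8.7% of all 32851 windows, and a match is a description of the sequence alone. CG dinucleotides are in capitals.
*Mest* start, chr6:30737800-30738049, plus strand: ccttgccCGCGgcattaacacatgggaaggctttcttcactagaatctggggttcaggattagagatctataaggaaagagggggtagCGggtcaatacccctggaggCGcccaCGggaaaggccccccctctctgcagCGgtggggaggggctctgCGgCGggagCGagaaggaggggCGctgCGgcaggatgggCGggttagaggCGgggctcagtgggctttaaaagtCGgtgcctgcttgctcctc

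*Peg3*, a paternally expressed zinc finger protein linked to growth and maternal care, ran opposite to *Mest* in the lung groups. It was at 0.18 and 0.44 TPM in lung CD44low and at 7.52 and 5.21 TPM in lung CD44high. It was at 9.6 and 17.73 TPM in MFP, 3.22 to 14.37 TPM in LN, 3.05 and 11.14 TPM in BM CD44low and 0.91 and 2.01 TPM in BM CD44high. Lung CD44low lay below every other library. *Peg3* fell by 3.43 (SE 0.61, adjusted p = 0.001313) in lung CD44low against MFP and rose by 2.48 (SE 0.61, adjusted p = 0.01231) from lung CD44low to lung CD44high. The latter call of *Peg3* was lost without lung CD44low replicate 1 (2.34, adjusted p = 0.08025), without lung CD44low replicate 2 (2.62, adjusted p = 0.05327) and without lung CD44high replicate 1 (2.25, adjusted p = 0.07868). It also fell by 2.56 (SE 0.61, adjusted p = 0.01224) in BM CD44high against MFP, which was lost without MFP replicate 2 (-2.14, adjusted p = 0.09215) and without BM CD44high replicate 1 (-2.23, adjusted p = 0.08816).

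*Usp29*, a paternally expressed deubiquitinase gene, starts 146 bases from *Peg3* on the other strand. It was at 0 in all 4 lung libraries and at 0.05 to 0.68 TPM in the other 10, so lung CD44high had *Peg3* without detected *Usp29*. The bases between both starts are shown, CG in capitals, because both genes are read outward from this short interval and yet only *Peg3* was detected in lung. *Zim1*, the maternally expressed neighbour of *Peg3*, was at 0 in all bulk libraries and had 2 counts in the single cells, both in lungL.
*Peg3* and *Usp29* interval, chr7:6730432-6730577, plus strand: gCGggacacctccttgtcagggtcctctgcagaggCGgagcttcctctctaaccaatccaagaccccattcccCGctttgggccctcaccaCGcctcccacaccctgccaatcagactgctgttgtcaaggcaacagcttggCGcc

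**Figure D2:**
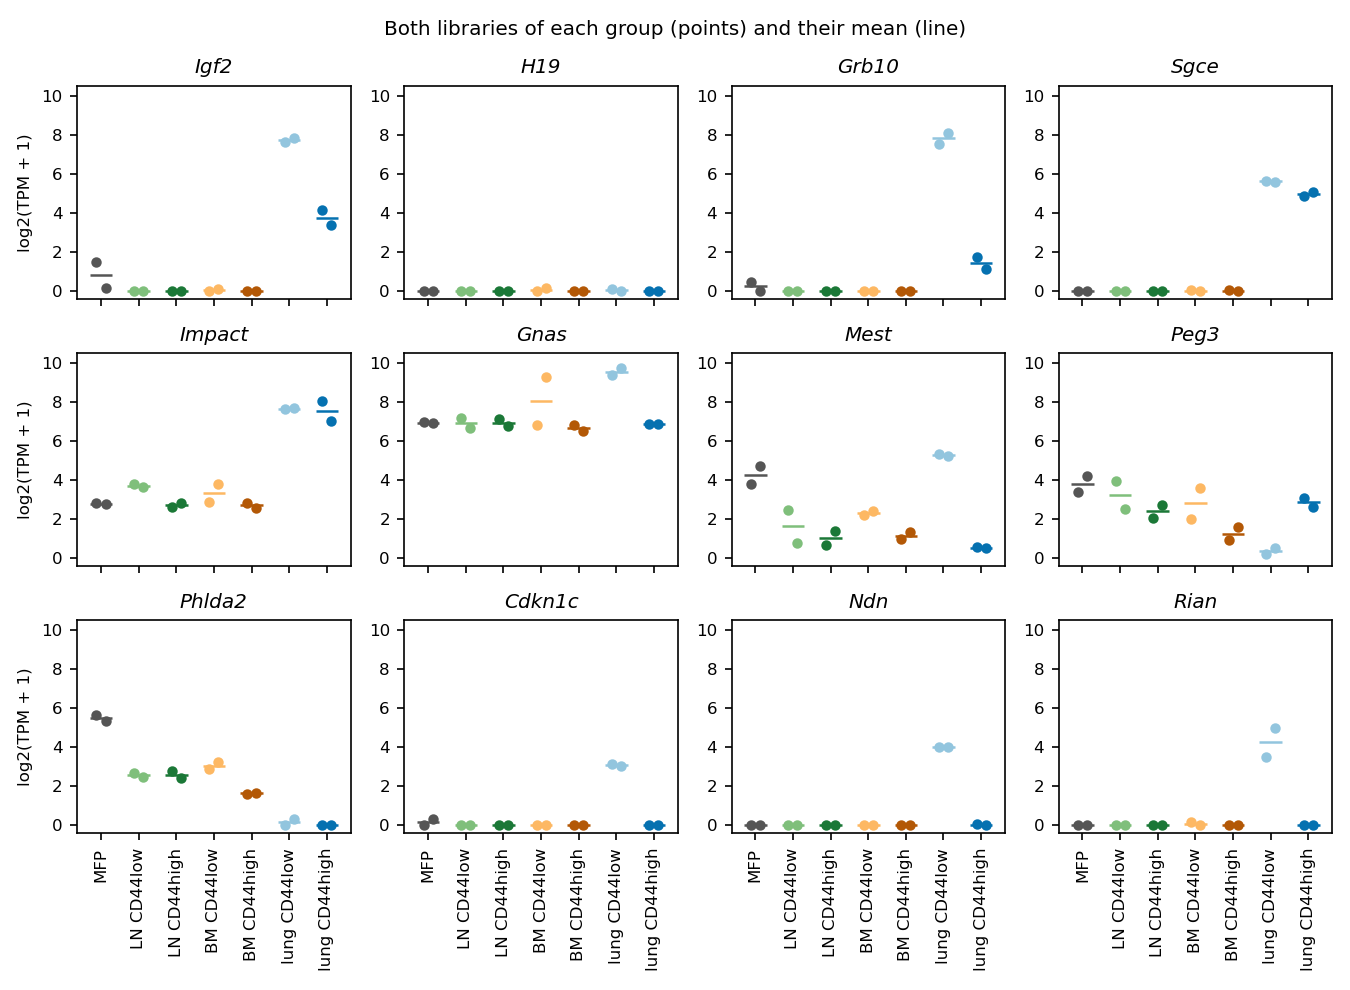
Log2(TPM + 1) of 12 imprinted genes in the 7 bulk groups, with both libraries as points and their mean as a line. *Igf2*, *Grb10*, *Mest*, *Gnas*, *Cdkn1c*, *Ndn* and *Rian* are higher in lung CD44low than in lung CD44high, *Peg3* is lower, and *Impact* and *Sgce* are high in both lung groups.

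*Sgce*, the paternally expressed epsilon-sarcoglycan of the cell membrane, was high in both lung groups. It was at 49.59 and 46.44 TPM in lung CD44low and at 28.33 and 32.1 TPM in lung CD44high, was listed at 0 in MFP and LN, and reached at most 0.03 TPM in BM. It was called higher in both lung groups against MFP, and its difference of -0.65 (SE 0.20, adjusted p = 0.0325) between the lung groups was under the fold needed. *Peg10*, a retrotransposon-derived gene that starts 98 bases from *Sgce* on the other strand, was at 0.5, 0.79, 1.39 and 0.8 TPM in the 4 lung libraries and listed at 0 in the other 10. Both genes of this pair were thus highest in the lung libraries, *Peg10* too low to be tested.

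*Impact*, a paternally expressed regulator of translation on chromosome 18, was at 198.76 and 204.04 TPM in lung CD44low and at 261.52 and 129.12 TPM in lung CD44high, against 5.06 to 12.79 TPM in the other 10 libraries. It rose by 4.87 (SE 0.36, adjusted p = 3.089e-06) in lung CD44low and by 4.74 (SE 0.36, adjusted p = 7.187e-06) in lung CD44high against MFP. The lung groups overlapped. *Zrsr1*, a paternally expressed splicing factor gene that lies inside *Commd1*, was lowest in MFP at 0.93 and 1.53 TPM, at 2.92 to 4.68 TPM in LN and BM and at 7.78 to 11.51 TPM in lung. *Zrsr1* rose against MFP by 2.34 in lung CD44high (SE 0.29, adjusted p = 0.0002019) and by 2.04 in lung CD44low (SE 0.29, adjusted p = 0.0003611). The lung CD44low value of *Zrsr1* fell under the fold without MFP replicate 1 (1.84) and without lung CD44low replicate 2 (1.99).

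*Gnas*, the locus of the stimulatory G protein alpha subunit, was the most abundant member in all libraries but both of lung CD44high, where *Impact* was. It was at 92.19 to 144.75 TPM in 11 libraries, at 659.01 and 851.75 TPM in lung CD44low and at 613.45 TPM in BM CD44low replicate 2, whose partner had 112.45 TPM. Lung CD44low was therefore above all others, but only just above that single BM library. *Gnas* rose by 2.60 (SE 0.60, adjusted p = 0.005623) in lung CD44low against MFP and fell by 2.68 (SE 0.60, adjusted p = 0.007462) to lung CD44high, a fall that lost its call without lung CD44low replicate 2 (-2.50, adjusted p = 0.05697). *Nespas*, the paternally expressed antisense RNA of the locus, reached at most 0.51 TPM, in LN and BM, and was at 0 in MFP and lung. It shares 31.4% of its exonic bases with *Gnas* on the other strand, so with the strand setting not stated its low level cannot be told from reads of *Gnas*.

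The *Snrpn* cluster of paternally expressed genes on chromosome 7, the mouse counterpart of the Prader-Willi region, did not move as 1 unit. *Snrpn*, a spliceosome protein gene, was highest in MFP at 42.59 and 50.25 TPM, at 20.82 to 30.04 TPM in lung and at 8.25 to 11.99 TPM in LN and BM, and these 3 ranges did not overlap. *Snrpn* fell against MFP by 2.34 in LN CD44low (SE 0.21, adjusted p = 5.335e-05) and by 2.06 in BM CD44low (SE 0.21, adjusted p = 9.93e-05). The values in LN CD44high and BM CD44high were -1.91 and -1.92, just under the fold, and the BM CD44low call of *Snrpn* was lost without MFP replicate 2 (-1.95), without BM CD44low replicate 2 (-1.86) and with a median-ratio scaling (-1.78). *Snrpn* shares exons with *Snurf* and *Gm38393*, so its level depends on how reads were split.

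*Ndn*, a growth-restraining MAGE family gene of the same cluster, was at 15.05 and 15.13 TPM in lung CD44low, 0.07 and 0 TPM in lung CD44high and 0 in the other 10 libraries. It met the call rule as higher in lung CD44low than in MFP and lung CD44high, which its passing through lung CD44low alone made likely. *Peg12*, an intronless gene of the cluster, was at 4.51 and 1.58 TPM in the MFP libraries, 4.07 and 3.86 TPM in lung CD44low, 1.47 and 2.38 TPM in lung CD44high and at most 0.08 TPM in LN and BM. Its differences from MFP of -1.86 to -1.92 in the LN and BM groups had adjusted p-values of 0.002703 or less but were under the fold needed. *Mkrn3*, a ring finger gene that holds back puberty, stayed at 0.07 to 1.52 TPM and was called nowhere. *Magel2* was at 0 in all bulk libraries, so neighbours within this cluster had different patterns.

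The *Dlk1*-*Meg3* cluster on chromosome 12 was detected almost only in lung CD44low. Its maternally expressed noncoding RNAs were at 10.29 and 31.32 TPM (*Rian*), 0.97 and 2.71 TPM (*Meg3*) and 0.54 and 0.27 TPM (*Mirg*) in the 2 lung CD44low libraries. Outside that group only *Meg3* in lung CD44high replicate 2 (0.34 TPM) and *Rian* in BM CD44low replicate 1 (0.13 TPM) were above 0. The paternally expressed members, *Dlk1*, a Notch family ligand, and *Rtl1*, a retrotransposon-derived placental gene, were at 0.15 and 0.18 TPM and at 0.06 and 0.26 TPM in lung CD44low and listed at 0 in the other 12 libraries. *Rian* was called higher in lung CD44low against MFP and lower in lung CD44high than in lung CD44low, where both other groups were listed at 0 and the gene was tested through lung CD44low alone. *Rian* holds 6 mature miRNAs of RefSeq and *Mirg* 26, which these libraries did not measure. Between the lung CD44low libraries, replicate 2 had more *Rian* and *Meg3*.

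The maternally expressed growth restrainers of the *Kcnq1* domain on chromosome 7 went opposite ways in lung CD44low against MFP. *Cdkn1c*, an inhibitor of cyclin-dependent kinases, was at 7.78 and 7.11 TPM in lung CD44low, at 0.27 TPM in MFP replicate 2 and listed at 0 in the other 11 libraries. It met the call rule in lung CD44low against MFP and against lung CD44high, again as a gene tested through lung CD44low alone. The cycling markers were low in both lung groups, as given above. *Phlda2*, a pleckstrin homology protein that restrains placental growth and lies 40.5 kb from *Cdkn1c*, was at 50.24 and 39.61 TPM in MFP, 2.02 to 8.39 TPM in LN and BM and 0, 0.26, 0 and 0 TPM in lung. It fell against MFP in all 6 groups, with differences from -2.46 in BM CD44low to -5.35 in lung CD44low where the group was above 0 (SE 0.27, adjusted p = 0.0001685 or less), and was listed at 0 in both lung CD44high libraries (adjusted p = 4.265e-07). *Phlda2* was the only member called in all 6 comparisons with MFP, and the ranges of MFP, of LN and BM and of lung did not overlap. *Kcnq1ot1*, the antisense RNA that silences this domain in cis, was at 0.04 to 0.59 TPM, lowest in lung CD44low at 0.04 TPM in both libraries and highest in lung CD44high replicate 1.

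Of the remaining members, *Plagl1*, a zinc finger regulator of other imprinted genes, was at 0 to 1.92 TPM and was called nowhere. *Nnat*, a small membrane protein gene inside *Blcap*, was at 0.08 to 1.39 TPM. *Slc38a4*, an amino acid transporter, was above 0 only in lung CD44low at 0.06 and 0.03 TPM, and *Zdbf2* only in BM CD44low at 0.01 and 0.09 TPM.

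Counted over the 18 tested members, the LN and BM groups differed from MFP by few calls, all lower. So few of all genes were called higher there that 0 higher of 18 members is near their share. Of the 7 epithelial markers, 3, 2, 2 and 3 were also called lower in LN CD44low, LN CD44high, BM CD44low and BM CD44high, with medians of -2.02, -0.99, -1.51 and -1.45, and their part was not tested. LN CD44low had 0 higher and 3 lower (*Mest*, *Snrpn* and *Phlda2*), where 2.07% and 2.72% of all genes tested were called higher and lower. LN CD44high had 0 higher and 2 lower, against 2.44% and 3.68% of all genes, BM CD44low 0 and 2, against 3.99% and 3.17%, and BM CD44high 0 and 3, against 3.64% and 4.03%. These comparisons share both MFP libraries, so their calls are not independent. With a pseudocount of 0.1 the counts of LN CD44high and BM CD44high were 4 and 5, and without BM CD44low replicate 2 that of BM CD44low was 1.

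The lung groups had members called higher than MFP, and as few called lower as LN and BM. Lung CD44low had 9 members higher than MFP (*Igf2*, *Grb10*, *Sgce*, *Impact*, *Ndn*, *Rian*, *Cdkn1c*, *Gnas* and *Zrsr1*) and 2 lower (*Peg3* and *Phlda2*), against 11.2% and 7.62% of all genes. Of the 12 tested paternally expressed members 5 were higher and 1 lower, of the 4 maternally expressed 2 were higher and 1 lower, and both members without a fixed copy were higher. Lung CD44high had 4 members higher than MFP (*Igf2*, *Sgce*, *Impact* and *Zrsr1*, all paternally expressed) and 2 lower (*Mest* and *Phlda2*), against 5.42% and 8.03% of all genes. The median difference from MFP was 0.71 over the paternally and 0.67 over the maternally expressed tested members in lung CD44low, and -0.27 and -0.94 in lung CD44high, where the medians over all genes were 0 and -0.04. Without lung CD44low replicate 2 the 11 calls of lung CD44low became 7, since *Zrsr1* fell under the fold and *Ndn*, *Rian* and *Cdkn1c* then reached 1 TPM in only 1 library and were not tested.

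Between CD44high and CD44low cells, imprinted genes were called in lung alone, but almost no genes of any kind were called in LN and BM. In LN, 0 members were called in either direction by limma, against 0.117% of all genes higher and 0.0912% lower, and in BM again 0, against 0.0521% and 0.0521%. The counts were also 0 at an unadjusted p under 0.05 with the same fold, although without BM CD44low replicate 1, which leaves BM CD44low with replicate 2 alone (assumed to vary like the other groups), 2 members were called lower in BM. In lung, 8 members were lower in CD44high cells (*Igf2*, *Grb10*, *Mest*, *Ndn*, *Rian*, *Cdkn1c*, *Gnas* and *Airn*) and *Peg3* alone was higher, against 8.8% of all genes lower and 2.49% higher. The lower members comprised 4 paternally and 2 maternally expressed genes and both without a fixed copy. The 8 fibroblast markers moved the same way, 7 of 8 being lower in lung CD44high (median -5.35). Without either lung CD44low library the 9 calls became 4, as *Ndn*, *Rian* and *Cdkn1c* were no longer tested and 2 further calls, named above, were lost. A test of whether the CD44 difference itself differed between organs is given in the closing observations.

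Lung cells of both signatures were also compared with LN and BM cells, without MFP. Of the 18 tested members 6 were higher in lung (*Igf2*, *Grb10*, *Sgce*, *Impact*, *Ndn* and *Rian*) and 1, *Phlda2*, was lower, against 7.13% and 5.54% of all genes. *Impact* rose by 4.47 (SE 0.22, adjusted p = 1.328e-07) and *Phlda2* fell by 2.39 (SE 0.165, adjusted p = 1.487e-06), with every lung library above or below every LN and BM library. *Ndn* and *Rian* were called through lung CD44low alone, since lung CD44high was at or near 0 for both, and *Ndn* fell under the fold with a median-ratio scaling (1.96). Of the epithelial and fibroblast markers, 6 of 7 were lower and 7 of 8 higher in lung in the same comparison.

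**Figure D3:**
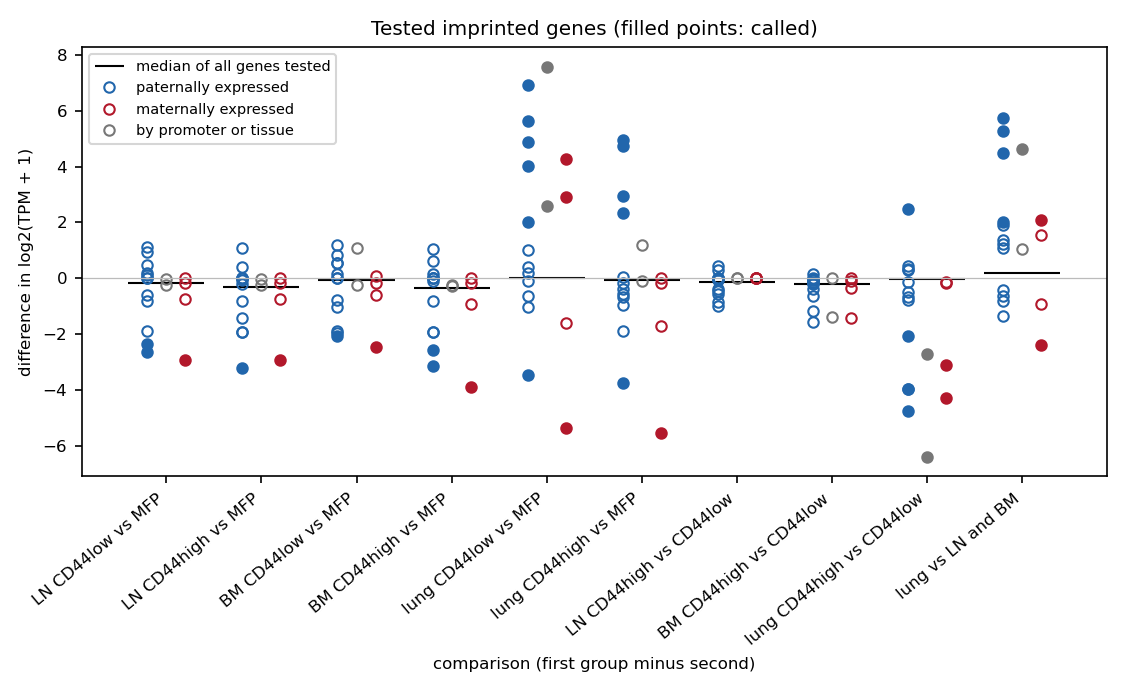
Difference in log2(TPM + 1) of each tested imprinted gene (circles, filled where called, colored by expressed copy) in the 10 comparisons, with the median of all genes tested as a bar. Filled circles lie on both sides of 0 in the lung comparisons, only below 0 for LN and BM against MFP, and are absent for CD44high against CD44low in LN and BM.

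Genes next to or around the imprinted loci that are not themselves known as imprinted in most tissues were rarely called. Of 14 such hosts and neighbours 12 were tested and 1 was called in any of the 10 comparisons, where 31.9% of all tested genes were. This was *Casd1*, next to *Sgce*, which rose by 2.38 (SE 0.56, adjusted p = 0.01248) in BM CD44low against MFP, with 3.37 and 13.93 TPM against 0.47 and 0.63 TPM. The *Casd1* call rested on BM CD44low replicate 2 (1.497 without it, adjusted p = 0.05595) and was also lost without MFP replicate 1 (adjusted p = 0.07311) or 2 (adjusted p = 0.06113) and when only these 4 libraries were fitted (adjusted p = 0.1575). *Casd1* was at 1.69 to 6.41 TPM in lung, where its neighbour *Sgce* was at 28.33 to 49.59 TPM. *Blcap*, the host of *Nnat*, was at 39.22 and 30.81 TPM in MFP and 7.43 to 22.27 TPM elsewhere, and *Nap1l4*, a neighbour of *Phlda2*, was at 48.48 to 108.81 TPM in lung and 86.84 to 168.79 TPM elsewhere, both without a call.

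Of 12 genes that keep imprints, 10 were tested and 3 (30%) were called in any comparison, near the 31.9% of all tested genes. *Uhrf1*, which brings the maintenance methyltransferase to newly copied DNA, was at 0.3 to 1.58 TPM in lung and 16.45 to 74.39 TPM elsewhere, and fell by 4.64 (SE 0.38, adjusted p = 4.441e-06) against LN and BM. *Dnmt1*, that methyltransferase, fell by 2.40 (SE 0.55, adjusted p = 0.005869) in lung CD44low against MFP, with 7.05 and 7.81 TPM against 49.82 and 37.59 TPM. *Zfp445*, a zinc finger protein that protects imprints, fell by 2.14 (SE 0.45, adjusted p = 0.003564) in the same comparison, and was under the fold without lung CD44low replicate 1 (-1.77). Both *Uhrf1* and *Dnmt1* are known to be read mostly in dividing cells, and 5 of 5 cycling markers were lower in lung against LN and BM and in lung CD44low against MFP, whose part in these values was not tested. The single cells described below had another order, with 0.495, 1.31 and 0.751 counts of *Uhrf1* and 0.721, 1.33 and 0.951 of *Dnmt1* per 10000 in lungL, lungH and lymphH. Of the cycling markers there, *Mki67*, *Top2a*, *Ccnb1* and *Cdk1* were also highest in lungH and *Birc5* in lymphH. *Zfp57* was at 0 to 2.9 TPM and was called nowhere.

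Of 8 genes of the IGF2 pathway 7 were tested and 3 (42.9%) were called in any comparison, against 31.9% of all tested genes. *Irs1*, an adaptor of the IGF1 and insulin receptors, was at 4.37 and 3.55 TPM in MFP, at most 0.08 TPM in LN and BM, 4.05 and 5.36 TPM in lung CD44low and 18.33 and 13.75 TPM in lung CD44high, and rose by 3.27 (SE 0.14, adjusted p = 4.156e-08) in lung against LN and BM. *Igf2bp3*, an RNA-binding protein of *Igf2* messages, rose by 2.91 (SE 0.45, adjusted p = 0.0005551) in lung CD44low against MFP, with 6.64 and 7.17 TPM against 0.06 and 0.05 TPM. *Igf2bp2* fell by 2.12 (SE 0.31, adjusted p = 0.0006746) from lung CD44low to lung CD44high, under the fold without lung CD44low replicate 2 (-1.83). *Igf1r*, the signalling receptor of IGF2, was at 8.23 and 10.45 TPM in lung CD44low, 19.12 and 16.07 TPM in lung CD44high and 2.48 to 5.28 TPM elsewhere, with no call.

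In single cells, levels are counts summed over the kept cells of a library and given per 10000 counts with exact Poisson 95% intervals, which cover counting error only. With 1 library for each group no test was possible, and genes at least 4-fold apart with at least 10 counts in the higher library were counted. The kept cells were 348 of 2808 barcodes in lungL, 1236 of 3623 in lungH and 2562 of 3297 in lymphH, with medians of 4011, 557 and 585 counts a cell. A count of 0 was taken as 3 counts, or 0.0135, 0.0136 and 0.00567 per 10000. *Epcam* had 0 counts in lungL, 3 in lungH and 936 in lymphH, *Krt14* had 0, 0 and 87, and *Cldn3* 44, 0 and 1555. The keratins *Krt8* (30, 369 and 1483 counts) and *Krt18* (116, 573 and 618 counts) were detected in the lung cells, and *Krt18*, chosen after its values were seen, was 2.22-fold higher in lungH than in lymphH per 10000, whereas bulk lung had at most 27.78 TPM of *Krt8* and 58.86 TPM of *Krt18* against at least 497.79 and 287.09 TPM elsewhere.

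*Grb10* had 592 counts in lungL, 78 in lungH and 0 in lymphH, or 2.67 (2.46 to 2.89) and 0.353 (0.279 to 0.440) per 10000 in lung. It was found in 37.4% of lungL cells (exact binomial 32.3% to 42.7%) and 3.32% of lungH cells (2.39% to 4.47%). After each cell was thinned to 500 counts, leaving out 34, 288 and 659 shallower cells of lungL, lungH and lymphH, these shares were 11.5% and 1.16%, so the order held at equal depth. In lymphH, *Grb10* had no count in any of 2562 cells, which allows up to 0.144% of cells with a count and does not limit the share of expressing cells at a median of 585 counts a cell. Its level was at least 470-fold below lungL when 0 counts are taken as 3.

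*Peg3* went the other way, with 0 counts in lungL against 162 in lungH and 671 in lymphH, or 0.733 (0.624 to 0.855) and 1.27 (1.18 to 1.37) per 10000. LungH was at least 54.2-fold above lungL. *Ndn* had 97 counts in 43 lungL cells and 0 in the other 2 libraries, at least 32.2-fold lower in lungH and at least 77-fold lower in lymphH. Its lungL level was 0.437 (0.354 to 0.533) per 10000 and 0.230 as a mean of per-cell values, which would make these bounds smaller. By level per 10000, the order of lungL and lungH for *Grb10*, *Peg3* and *Ndn* was thus that of lung CD44low and CD44high in bulk. *Peg3* was higher in lymphH than in lungH. Bulk *Peg3* was at 3.22 and 5.59 TPM in LN CD44high against 7.52 and 5.21 TPM in lung CD44high. In the thinned cells, *Peg3* kept its lung order, with 0% (0% to 1.17%) of lungL and 2.74% (1.8% to 3.99%) of lungH cells. *Ndn* was then found in 1 of 314 lungL cells (0.32%, 0.008% to 1.76%) and 0 of 948 lungH cells (0% to 0.39%). These *Ndn* shares overlapped, so at equal depth they do not tell the lung libraries apart.

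*Sgce* had 79 counts in lungL, 99 in lungH and 0 in lymphH, and its levels of 0.356 (0.282 to 0.443) and 0.448 (0.364 to 0.545) per 10000 overlapped between the lung libraries. *Impact* had 0.761 (0.651 to 0.885), 0.973 (0.847 to 1.11) and 0.373 (0.322 to 0.428) per 10000 in lungL, lungH and lymphH. As means of per-cell values *Impact* was at 0.980, 1.17 and 0.616. It was lowest in lymphH but under 4-fold apart, where bulk had 129.12 to 261.52 TPM in lung and 5.23 and 6.21 TPM in LN CD44high. *Zrsr1*, at 7.78 to 11.51 TPM in bulk lung and 3.97 and 3.35 TPM in LN CD44high, was 0.909-fold in lungL and 1.37-fold in lungH of its lymphH level. *Meg3* had 43, 6 and 1 counts in lungL, lungH and lymphH, and *Phlda2* had 28 counts in lymphH and 0 in both lung libraries. *Peg10* had 20 counts in lungH, 3 in a single lungL cell and 0 in lymphH.

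*Igf2*, *Mest* and *Rian* did not show the lung difference of the bulk data. *Igf2* had 17 counts in 9 lungL cells and 27 counts in 8 lungH cells, 0.0766 (0.0446 to 0.123) and 0.122 (0.0805 to 0.178) per 10000, so the lung libraries overlapped where the bulk levels were 195.92 and 224.29 TPM against 16.51 and 9.42 TPM. A single lungH cell held 14 of its 27 counts. *Igf2* had 0 counts in lymphH, at least 13.5-fold below lungL. *Mest* had 17 counts in lungL, 9 in lungH and 32 in lymphH, or 0.0766 (0.0446 to 0.123), 0.0407 (0.0186 to 0.0773) and 0.0605 (0.0414 to 0.0854) per 10000, all overlapping, where bulk lung had 39.5 and 36.88 against 0.47 and 0.44 TPM. *Rian* had 6, 4 and 2 counts in the same order. *Kcnq1ot1*, lowest in lung CD44low in bulk, was not lowest in lungL. It had 0.410 (0.330 to 0.503), 0.348 (0.275 to 0.435) and 0.295 (0.251 to 0.345) per 10000 in lungL, lungH and lymphH. *Cdkn1c*, at 7.78 and 7.11 TPM in bulk lung CD44low, had 0 counts in all 3 single-cell libraries, as did *H19*, *Slc38a4*, *Zdbf2*, *Magel2*, *Nespas* and *Rtl1*. *Gnas* had 5.09 (4.80 to 5.40), 5.07 (4.77 to 5.37) and 3.57 (3.41 to 3.74) per 10000 in lungL, lungH and lymphH, without the lung difference of the bulk data. As means of per-cell values these *Gnas* levels were 2.88, 2.38 and 1.54, and *Mest* in lungL was 0.0380. An opposite-strand gene that shares 13.1% of the exonic bases of *Gnas*, *Gm20721*, had 2978, 4575 and 4085 counts over all barcodes of these libraries against at most 3.45 TPM in bulk, so the *Gnas* single-cell level is uncertain.

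**Figure D4:**
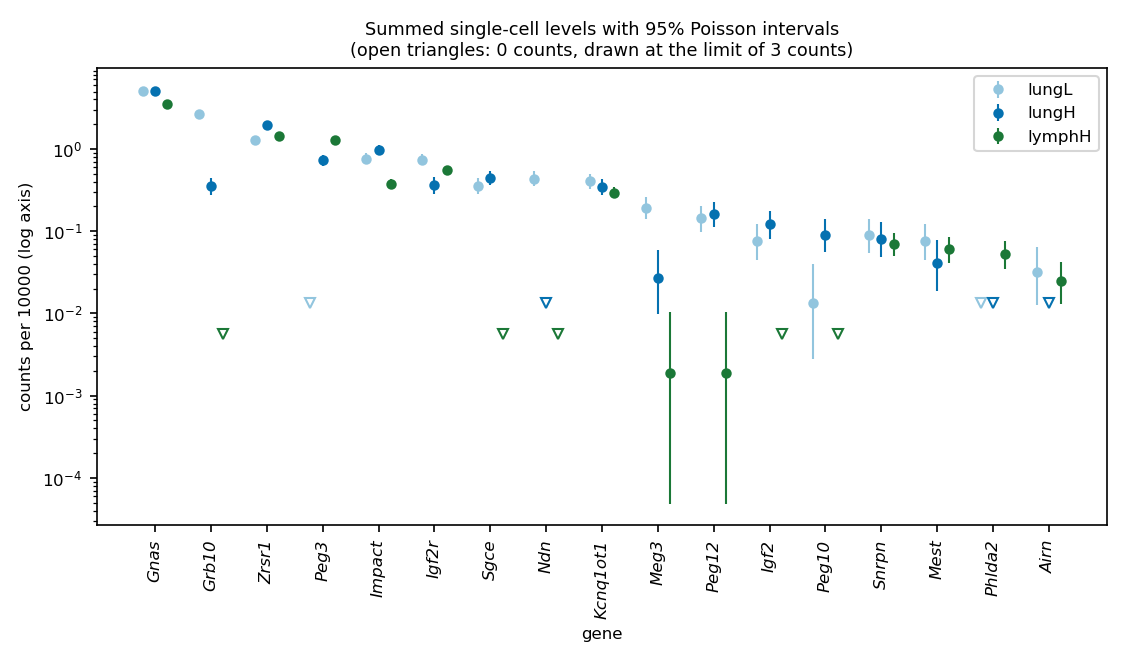
Single-cell levels of the 17 imprinted genes with at least 10 counts in a library, as counts per 10000 on a log axis with exact Poisson 95% intervals, 1 library a group, and open triangles at the limit of 3 counts where a gene had 0 counts. *Grb10* and *Ndn* are highest in lungL, *Peg3* is at the limit in lungL, and *Sgce* and *Igf2* are at the limit in lymphH only.

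Of the 16 members with at least 10 counts in lungL or lymphH, 6 were at least 4-fold higher in lungL (*Igf2*, *Ndn*, *Peg12*, *Sgce*, *Meg3* and *Grb10*) and *Peg3* was lower, where 9.14% and 4.98% of all genes compared were. LungH had 5 of 15 members at least 4-fold higher than lymphH (*Igf2*, *Peg12*, *Sgce*, *Peg10* and *Grb10*) and 0 lower, against 6.51% and 4.93%. Between the lung libraries, 2 of 15 members were at least 4-fold higher in lungH (*Peg3* and *Peg10*) and 3 lower (*Ndn*, *Meg3* and *Grb10*), against 4.82% and 6.46%. Of the fibroblast markers, *Col1a1*, *Col1a2*, *Col3a1*, *Dcn* and *Pdgfrb* were at least 4-fold higher in lungL than in lungH and in lymphH. *Pdgfra* was so against lymphH alone. *Lum*, at 362.28 and 217.49 TPM in bulk lung CD44low, and *Thy1* had under 10 counts in each library and were not compared. In lungL, lungH and lymphH, *Col1a1* had 965, 5 and 14 counts, *Col1a2* 3192, 0 and 2, and *Dcn* 22, 0 and 0. Bulk *Dcn* was at 4090.71 and 4315.33 TPM in lung CD44low and 166.3 and 78.87 TPM in lung CD44high.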

How the data were processed

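For bulk libraries (modified SMART-seq2), the authors aligned reads to mm10 with STAR and quantified them with RSEM on GENCODE v21 (the identifiers match vM21), and deposited TPM for 14 libraries. Reads per library are not given beyond the stated minimum, so counting error of low TPM could not be computed. The edgeR exact test of the study on counts was not used here. TPM were taken as log2(TPM + 1). Of 55450 genes, the 15348 that reached 1 TPM in 2 or more libraries were fitted as 7 group means in limma 3.58.1 (lmFit, eBayes with trend, 7 residual degrees of freedom) in R 4.3.3 with data.table (version 1.17.8), two-sided and Benjamini-Hochberg adjusted over all genes tested. Calls needed an absolute difference over 2 and an adjusted p under 0.05. An exact permutation of 2 against 2 libraries cannot go below p = 0.333, so none is given. No batch is named in the labels.

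The authors sorted ddSeq barcodes with Ddseeker, quantified with kallisto and deposited whole-number counts per gene and barcode. Whether counts are UMIs is not stated. Barcodes were taken as cells where over 250 genes were seen and 13 mitochondrial genes held under 10% of counts, the study's own limits, leaving 2220759 counts in lungL, 2210623 in lungH and 5287425 in lymphH. Doublets were not called. Barcode names hold only a library and a number, so shared barcodes could not be counted. Levels, intervals (95%), thinning to 500 counts (seed 0) and folds used Python 3.11.15, numpy 2.4.6, scipy 1.17.1 and pandas 2.3.3, and figures matplotlib 3.10.9.

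Positions and overlaps are from GENCODE vM21 and promoter sequences from RefSeq (GRCm38.p6), found for 25 of 32 members.

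The members, gene lists and tests were chosen with earlier results of these data known. All 32 members and any gene of the further lists may be named, with values for at most the 4 genes of a list with the widest range of group means. *Krt18* was added after its values were seen. *Copg2*, *Gm49394*, *Gm20721*, *Gm38393* and *Snurf* are named only for their overlaps, and *Commd1* as a host gene. The gene lists were hosts or neighbours, imprint maintenance, the IGF2 pathway, and epithelial, fibroblast, muscle, macrophage, endothelial and cycling markers. Alternatives were a pseudocount of 0.1, no filter or one of 5 TPM, a median-ratio scaling, the replicate number as a block, unadjusted p, only the groups compared, no trend and each library left out (for called genes of the other lists, a check added after seeing the data), and for single cells over 500 genes, under 20% or no mitochondrial limit, all barcodes and the mean of per-cell values. The procedure was tested on simulated data.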

Additional observations from a re-analysis of the deposited data

Results flagged for a closer look

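The difference between CD44high and CD44low cells was itself compared between lung and LN and between lung and BM for all 18 tested imprinted genes. Of the 18, 1 was called higher and 8 lower against LN, where 3.39% and 7% of all genes were, and 1 and 6 against BM, where 2.77% and 5.89% were. *Sgce*, *Phlda2*, *Impact*, *Snrpn*, *Igf2r*, *Zrsr1*, *Peg12*, *Plagl1* and *Mkrn3* were called against neither. Each value is the lung difference (CD44high minus CD44low) minus that of the other organ on the log2(TPM + 1) scale, with an adjusted p from limma over all genes. *Grb10* (-6.37 in both) and *Igf2* (-3.96 against LN and -3.91 against BM) were tested through lung libraries alone and were at or near 0 in LN and BM, so these values restate the difference within lung and are given with no p. *Mest* differed by -4.18 against LN (SE 0.74, adjusted p = 0.003182) and by -3.59 against BM (adjusted p = 0.008218). *Rian* (-4.26 against LN and -4.17 against BM), *Ndn* (-3.96 in both) and *Cdkn1c* (-3.08 in both) reached 1 TPM in lung CD44low alone and so had to differ once they were tested, and their values are given with no p.

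*Peg3* was the exception in direction, differing by 3.32 (SE 0.86, adjusted p = 0.02301) against LN and by 4.03 (SE 0.86, adjusted p = 0.01018) against BM, since it was higher in lung CD44high while its mean in LN and BM was lower in CD44high than in CD44low cells. *Peg3* kept the call against LN in 17 of 22 alternatives, losing it without any of LN CD44low replicate 1 (2.63), LN CD44high replicate 1 (3.003), lung CD44low replicate 1 (3.18) or 2 (3.47) and lung CD44high replicate 1 (3.10). Against BM it lost the call without lung CD44low replicate 1 (3.89). *Gnas* differed against LN by -2.70 (SE 0.84, adjusted p = 0.04944) and *Airn* by -2.35 (SE 0.70, adjusted p = 0.04163), and these calls were lost in 16 and 13 of 22 alternatives.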

How the results depend on the processing

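Of 59 called values of single members, 45 kept their call in every alternative that gave a value, 14 lost it in at least 1 and 0 reversed. *Ndn*, *Rian* and *Cdkn1c* gave no value without either lung CD44low library. With a pseudocount of 0.1, members called in LN CD44high and BM CD44high against MFP were 4 and 5 instead of 2 and 3, and values against groups near 0 grew (*Cdkn1c* between the lung groups from -3.08 to -6.24). With a median-ratio scaling BM CD44low against MFP had 1 instead of 2. Leaving out each library gave 1 to 3 calls for BM CD44low against MFP, 0 to 2 for BM CD44high against CD44low, 7 to 11 for lung CD44low against MFP and 4 to 9 for lung CD44high against CD44low, where the lone library of a group is assumed to vary like the others. The causes of these changes were not tested further. With the replicate number as a block the counts stayed at 11 for lung CD44low against MFP and 9 between the lung groups, and it ended the calls of *Gnas* and *Airn* on the difference between lung and LN (adjusted p = 0.06426 and 0.05828). Over 21 pairs of groups, mostly of different organs, the correlation of replicate differences had a median of -0.037 (-0.194 to 0.168). Of these correlations, 3 were over 0.1. Whether the CD44low and CD44high libraries of an organ with the same number were paired was therefore not tested. The median of all genes was -0.34 in BM CD44high, -0.30 in LN CD44high and -0.18 in LN CD44low against MFP, and 0.20 in lung against LN and BM, which the scaling moved to 0.04, 0.02, 0.02 and -0.01. It moved the share of higher calls among all genes called from 47.4% to 64.9% in BM CD44high and 39.9% to 58.6% in LN CD44high against MFP, from 56.2% to 69.2% in LN CD44high against CD44low and from 56.3% to 45.6% in lung against LN and BM. In single cells the counts of members 4-fold apart stayed within 1.5 times under every alternative, and of 96 levels 28 moved beyond their interval with the mean of per-cell values, 9 with all barcodes and 7 with over 500 genes. With 2 libraries a group and unknown bulk depth, levels under 1 TPM were not tested.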
